A study of Mus musculus with 24 samples.

Results

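Clustered protocadherins are the mouse genes named Pcdha, Pcdhb and Pcdhg, which stand in 3 clusters on chromosome 18. The members described here are the protein-coding genes with such a symbol and at least 10 summed reads in at least 6 libraries. The rule found 57 genes among 52352 genes measured, with 14 in the alpha, 22 in the beta and 21 in the gamma cluster. Pcdhb1 stood just inside the rule, with 10 or more reads in 12 libraries (lowest 3, median 9.5, highest 33 reads), and no protein-coding gene of these names fell outside it. Pcdhgb8 was left out because the annotation lists it as a polymorphic pseudogene.

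The study measured polyA RNA from frontal cortex of littermate mice that carried 1 or both of a pair of changes, or neither. Mice with both changes (Grn+/-:hTDP+), the transgene alone (Grn+/+:hTDP+), the Grn change alone (Grn+/-:hTDP-) or neither (Grn+/+:hTDP-) made up 4 groups of 6, each with 3 females and 3 males. Grn+/- mice carry 1 functional copy of the gene for progranulin, a secreted and lysosomal protein, and hTDP+ mice overexpress TDP-43, which binds RNA, from a human transgene. The promoter of the transgene is not given in the sources used here. Ages were 9.44 to 10.07 months in Grn+/-:hTDP+, 9.44 to 10.07 in Grn+/+:hTDP+, 8.19 to 10.79 in Grn+/-:hTDP- and 9.44 to 10.79 in Grn+/+:hTDP- mice.

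Both changes were visible in the libraries. Grn averaged 26.3 ± 5.53 CPM (counts scaled to a common library size; SD, n = 12) in Grn+/- mice and 49.4 ± 7.55 CPM in Grn+/+ mice (n = 12). The human TARDBP transcript had 4328 to 8162 reads in hTDP+ libraries and 0 to 2 in hTDP- libraries. Slc17a7, the vesicular glutamate transporter of cortical excitatory neurons, was at 1071 to 1397 TPM (a level per transcript length). Libraries held 61445842 to 100859149 reads, of which the members took 0.114% to 0.139%.

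A pair of libraries stood apart. Grn+/+:hTDP+ replicate 2 had a value above 0 for 40188 transcripts, where the remaining 23 libraries had 65994 to 69846. Grn+/-:hTDP+ replicate 1 held the lowest value of 22 members and Grn+/+:hTDP+ replicate 2 that of 15, so these libraries held the lowest value of 37 of the 57 members. No other library was lowest for more than 2 members.

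Each alpha and gamma gene has its own promoter and its own large first exon, which codes for the cadherin repeats and the transmembrane part, spliced to constant exons shared by the whole cluster. Beta genes have a single coding exon and no constant part. A neuron switches on a small, largely random set of these promoters through CTCF, cohesin and DNA methylation, and the proteins bind only their own kind between cells. This gives each neuron an identity by which its own branches avoid each other. The C-type genes (Pcdhac1, Pcdhac2, Pcdhgc3, Pcdhgc4 and Pcdhgc5) escape the random choice and are used more widely. In mice, Pcdhac2 is needed for the spacing of serotonergic axons, Pcdhgc4 for the survival of inhibitory neurons, and Pcdhgc3 for the arbors of cortical neurons.

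On GRCm38 the alpha genes span chromosome 18 from 36930184 to 37187661, the beta genes from 37264938 to 37524479 and the gamma genes from 37661793 to 37841873. All lie on the plus strand. The shared exons decide how well a gene's reads can be told from its neighbours'. Of the words of 31 bases in a member's main transcript, a median of 36.3% occurred in no other gene for alpha, 88.2% for beta and 43.3% for gamma members. Main transcripts of alpha genes had a median of 53.3% of their bases in exons used by at least 10 members, gamma genes 44.9% and beta genes 0%. Reads from the shared part were divided among members by Salmon's estimate. Pcdha4 (0.488%) and Pcdhga10 (0.617%) had almost no words of their own, so their levels are uncertain. Other members shared 61.5% of the words of Pcdha4 and 45.4% of those of Pcdhga10. These shares are near the 61.8% of Pcdha3 and 44.6% of Pcdhga11. The remaining shared words occurred only in genes that are not members. The symbol Pcdha11 belongs to 2 gene IDs: one starting at 37005203, where RefSeq lists Pcdha10, and one starting at 37010712. They are called Pcdha11 upstream and Pcdha11 downstream here, and the downstream one, with 1.78% words of its own, is uncertain too. Other members shared 58.6% of the downstream gene's words.

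Several genes on the other strand overlap the members, and their reads can be confused with the members' reads. Gm37446, antisense to the region of Pcdhb12, had 357 reads in Grn+/+:hTDP+ replicate 2, against 4.03 to 37.7 in the other 23 libraries. Gm37165, antisense within the gamma cluster, had 4.32 reads in that library, against 46.1 to 218 in the others. Its span covers the starts of Pcdhga7, Pcdhgb4 and Pcdhga8. By position, Gm26672 (98.3 to 252 reads) overlaps the start of Pcdhga10. Gm10545 (116 to 453 reads) overlaps that of Pcdha11 downstream. The readthrough genes Gm42416, Gm37013 and Gm37388, which join alpha and gamma exons, had 0 reads in all 24 libraries. Gm42416 starts within Pcdha4.

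Gamma genes held most of the RNA per length. Mean TPM over the 24 libraries summed to 434 for the gamma, 85.2 for the alpha and 79.7 for the beta cluster, or 72.5%, 14.2% and 13.3% of the members' total. Pcdhgc5 was the highest member at 148 ± 14.0 TPM (SD, n = 24), which was 34.1% of the gamma sum. Pcdhgc4 followed at 59.5 ± 34.2 TPM and Pcdhgc3 at 48.6 ± 4.37 TPM. These 2 genes did not differ beyond their spread, which for Pcdhgc4 was the widest of the cluster. The rank of Pcdhgc4 is uncertain: a short transcript, made mostly of exons shared by the cluster, held a mean of 74.0% of its TPM, and the long transcript alone averaged 11.6 ± 1.35 TPM.

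**Figure D1:**
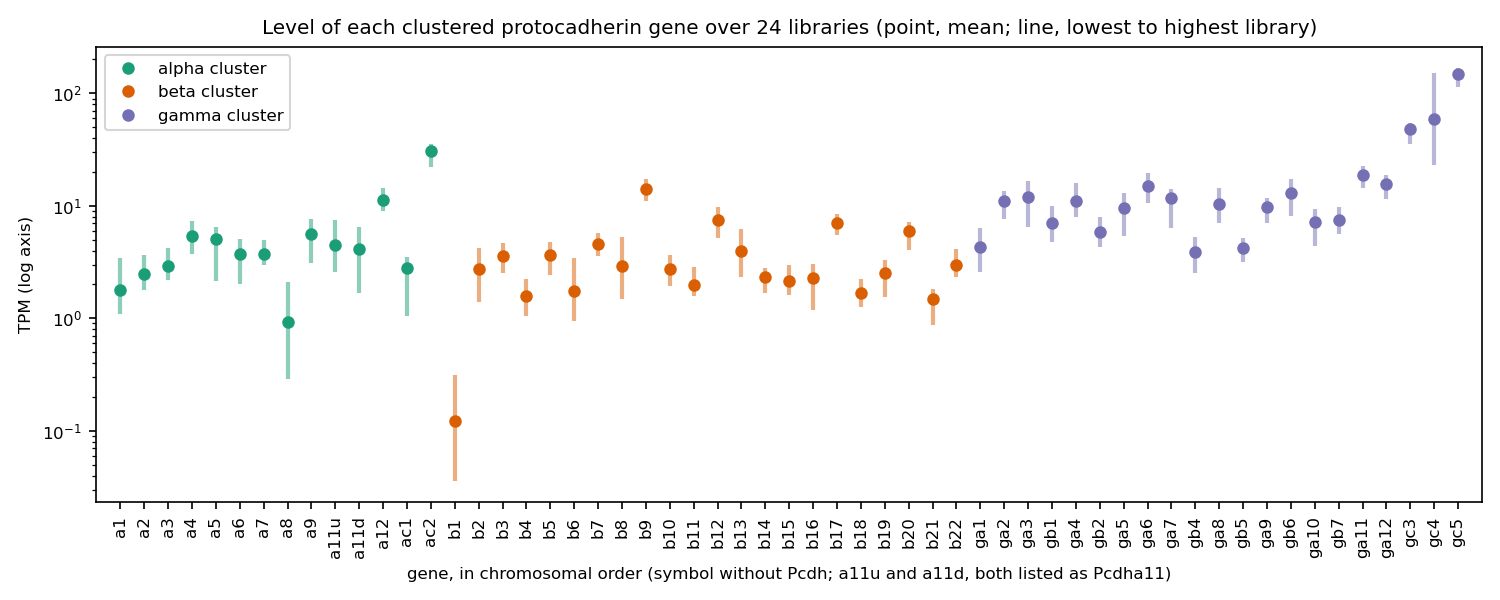
Level of each of the 57 members in TPM on a log axis, in chromosomal order and coloured by cluster; points are means over 24 libraries and lines run from the lowest to the highest library. The C-type genes Pcdhgc5, Pcdhgc4, Pcdhgc3 and Pcdhac2 stand highest, at 148, 59.5, 48.6 and 30.8 TPM, and Pcdhb1 lowest at 0.122 TPM; the level of Pcdhgc4 rests mostly on its short transcript, and its long transcript averaged 11.6 TPM.

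In the alpha cluster Pcdhac2 led at 30.8 ± 3.05 TPM, 36.2% of the alpha sum. Pcdha12 followed at 11.3 ± 1.43 TPM and Pcdha9 at 5.60 ± 1.03 TPM. The other C-type alpha gene, Pcdhac1, was eleventh of 14 at 2.82 ± 0.519 TPM. The lowest were Pcdha1 at 1.80 ± 0.607 and Pcdha8 at 0.926 ± 0.486 TPM. Markers of serotonergic neurons, in which Pcdhac2 is known to be abundant, summed to 0.203 to 1.04 TPM, and the defining gene Tph2 had a median of 0.284 TPM.

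In the beta cluster, Pcdhb9 led at 14.2 ± 1.68 TPM, before Pcdhb12 at 7.54 ± 1.14 and Pcdhb17 at 7.02 ± 0.747 TPM, and the last 2 did not differ beyond their spread. Pcdhb21 was at 1.47 ± 0.254 TPM and Pcdhb1 at 0.122 ± 0.0726 TPM, the lowest of all members. Gamma members outside the C type reached at most 18.7 TPM (Pcdhga11). The lowest gamma genes, Pcdhgb5 at 4.19 ± 0.603 and Pcdhgb4 at 3.87 ± 0.737 TPM, did not differ beyond their spread.

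Variation between mice was described over all members. The coefficient of variation of CPM over the 24 libraries had a median of 17.9% for alpha, 16.4% for beta and 15.1% for gamma members, against 11.4% over the 18239 genes tested. It was 11.2% over the 16859 genes with a mean CPM within the members' range. That range, 0.154 to 280 CPM, holds most of the genes tested, so those genes are not matched to the members by level. The most variable members were Pcdhb1 (60.7%), Pcdha8 (52.0%) and Pcdhgc4 (46.2%). The least variable were Pcdhgc5 (8.73%), Pcdhac2 (8.81%) and Pcdhb22 (9.10%).

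The first comparison asked what the human TDP-43 transgene did to these genes, averaged over both Grn genotypes. No member was called by edgeR's quasi-likelihood test at an adjusted p under 0.05, against 0.11% of all genes tested, and DESeq2 called 0 members and 0.335% of all genes. All 57 members passed the filter on low counts. Estimates lay below 0 for 53 of 57 members, with a median log2 change of -0.12, against 48.4% of all genes and a median of 0.0031. At an unadjusted p under 0.05 there were 18 members, 17 of them lower in hTDP+ mice, against 7.82% of all genes in either direction. The members are not separate observations, since many share exons and all were measured in the same mice. Counts of members here and below are thus a description and not a test of the set. With mice of the same age in months treated as a block, chosen after seeing the data, 47 members lay below 0 (median -0.11), and 4 members and 371 of 18239 genes had an unadjusted p under 0.05. Ages of 8.19, 9.14 and 10.56 months occurred only in Grn+/-:hTDP- mice, so age and group are in part confounded in this block.

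**Figure D2:**
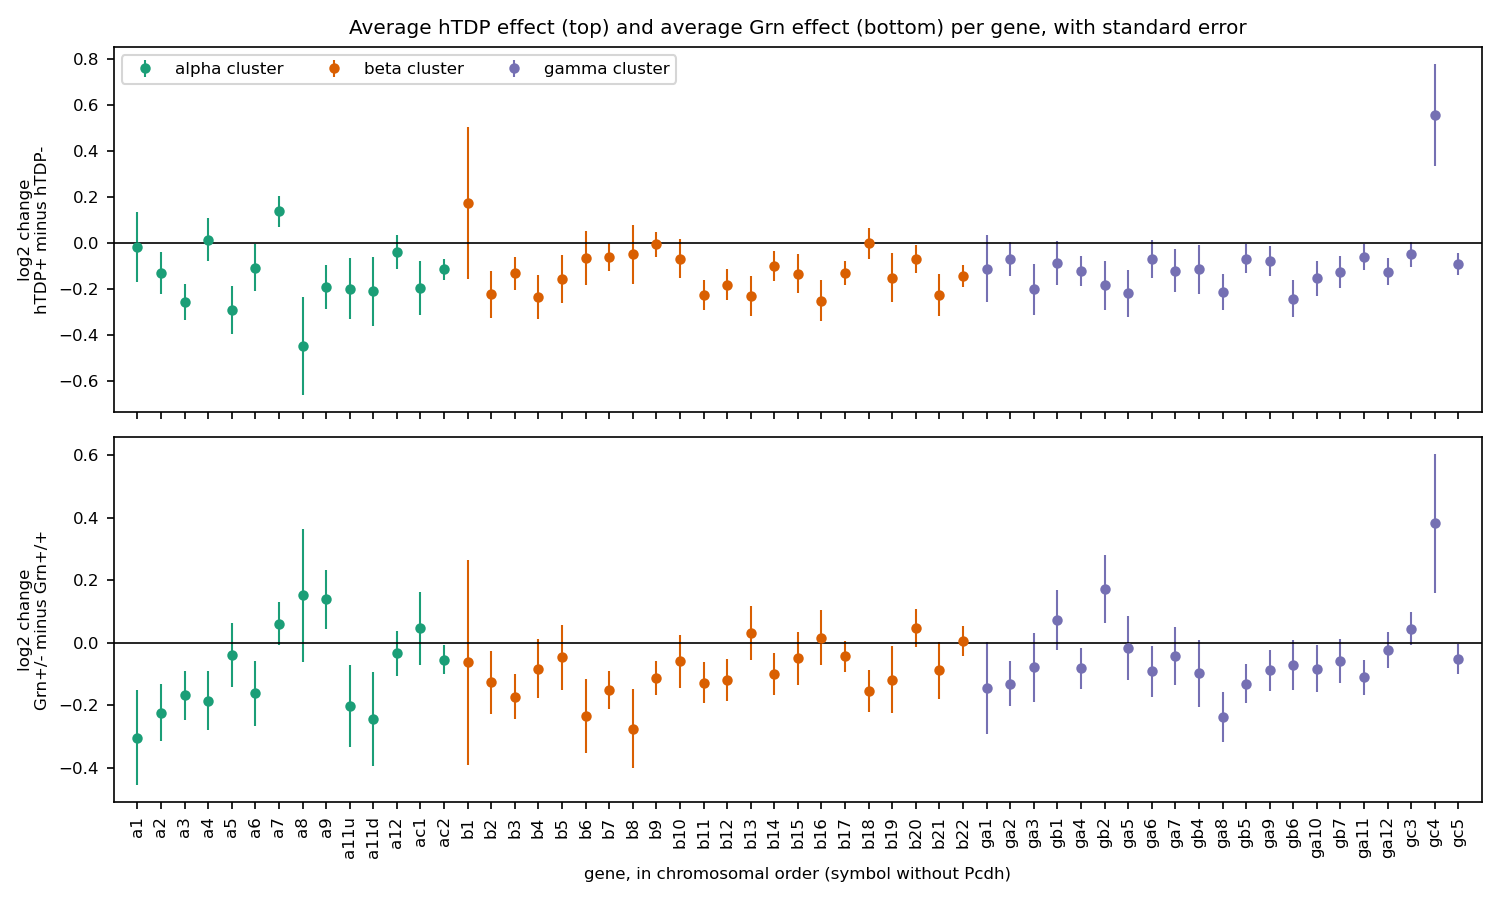
Log2 change of each member, with its standard error, for hTDP+ minus hTDP- (top) and Grn+/- minus Grn+/+ (bottom), in chromosomal order. Below 0 lie 53 of 57 members in the top and 45 of 57 in the bottom plot, and no member passed the adjusted threshold. Pcdhgc4 stands highest in both, at 0.56 and 0.38, while its long transcript alone was at -0.059 and -0.096.

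By cluster, the median log2 change was -0.16 over 14 alpha, -0.13 over 22 beta and -0.11 over 21 gamma members. Whether the clusters differ was not tested. The 4 members above 0 were Pcdhgc4 at 0.56 (SE 0.223), Pcdhb1 at 0.18 (SE 0.329), Pcdha7 at 0.14 (SE 0.0678) and Pcdha4 at 0.014 (SE 0.0938). The long transcript of Pcdhgc4 alone lay below 0. Without Grn+/-:hTDP+ replicate 1, 51 of 57 lay below 0 with a median of -0.100, and 15 had an unadjusted p under 0.05. Without both libraries that stood apart, 50 lay below 0 with a median of -0.089, and 12 had an unadjusted p under 0.05.

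Among beta genes Pcdhb11 had the smallest p. Its lowest, median and highest values were 3.55, 4.27 and 4.39 CPM in hTDP+ mice, against 3.92, 4.93 and 6.40 CPM in hTDP- mice. All 12 hTDP+ mice lay below the hTDP- median, though the groups overlapped. The log2 change was -0.23 (SE 0.0662, edgeR adjusted p = 0.379). Pcdhb22 had 8.56, 9.44 and 11.1 CPM in hTDP+ mice, against 9.67, 10.4 and 12.6 CPM in hTDP- mice. Its groups overlapped, and the log2 change was -0.14 (SE 0.0487, edgeR adjusted p = 0.520).

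Among alpha genes Pcdha3 had 6.27, 7.45 and 9.15 CPM in hTDP+ mice, against 6.87, 8.69 and 11.6 CPM in hTDP- mice. One hTDP+ mouse lay above the hTDP- median. The log2 change was -0.26 (SE 0.0782, edgeR adjusted p = 0.417). Pcdha5 gave -0.29 (SE 0.103, edgeR adjusted p = 0.547), and its lowest value, 5.95 CPM, was in Grn+/+:hTDP+ replicate 2. Of the gamma genes Pcdhgb6 had 19.8, 28.3 and 35.8 CPM in hTDP+ mice, against 27.7, 33.5 and 41.1 CPM in hTDP- mice, a log2 change of -0.24 (SE 0.0794, edgeR adjusted p = 0.484).

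The C-type genes other than Pcdhgc4 were estimated below 0. Of Pcdhgc4, the long transcript alone was also below 0, at -0.059 (SE 0.0691), and the short one was at 0.99 (SE 0.343). Pcdhac2 was at 69.9, 93.7 and 106 CPM in hTDP+ mice, against 90.9, 98.2 and 107 CPM in hTDP- mice, with a log2 change of -0.11 (SE 0.0461, edgeR adjusted p = 0.589). Pcdhgc5 gave -0.093 (SE 0.0481), Pcdhac1 -0.20 (SE 0.117) and Pcdhgc3 -0.049 (SE 0.0534). The lowest Pcdhac2 and Pcdhgc5 values were both in Grn+/-:hTDP+ replicate 1.

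Set against its own mean over the 24 libraries, the middle member of a mouse stood at -0.36, -0.037 and -0.022 on the log2 scale in the lowest, median and highest Grn+/-:hTDP+ mouse. The same values were -0.15, -0.059 and 0.074 in Grn+/+:hTDP+, -0.087, -0.017 and 0.10 in Grn+/-:hTDP-, and 0.049, 0.098 and 0.21 in Grn+/+:hTDP- mice. All 6 Grn+/-:hTDP+ mice were thus below 0 and all 6 Grn+/+:hTDP- mice above it, while both groups with a single change spread over either side. This is a description of the same values as the tests above, with no test of its own. In Grn+/-:hTDP+ replicate 1, 55 of 57 members were below their mean, with cluster medians of -0.32 for alpha, -0.41 for beta and -0.38 for gamma. In Grn+/+:hTDP+ replicate 2 the beta median was -0.33, while alpha stood at -0.027 and gamma at 0.023.

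Summed over each cluster, CPM ordered the groups in the same way for alpha and beta. The alpha sum averaged 229 ± 25.1 CPM in Grn+/-:hTDP+, 234 ± 14.0 in Grn+/+:hTDP+, 242 ± 15.0 in Grn+/-:hTDP- and 261 ± 6.13 in Grn+/+:hTDP- mice (SD, n = 6 each). The beta sum averaged 148 ± 11.7, 156 ± 11.1, 160 ± 10.5 and 170 ± 8.04 CPM in the groups in that order. The ratio of hTDP+ to hTDP- means was 0.921 for alpha and 0.920 for beta. The gamma ratio was 0.965, and 0.930 once the short Pcdhgc4 transcript was left out of the sum.

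**Figure D3:**
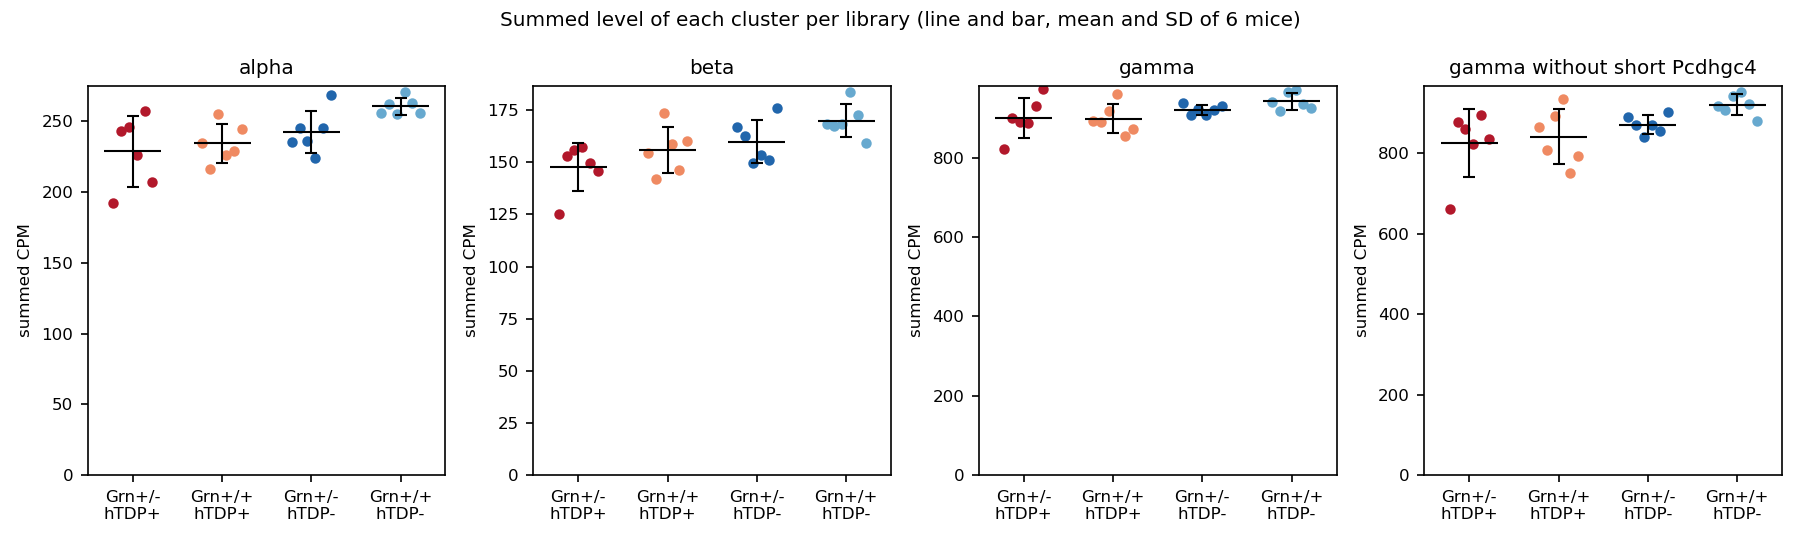
Summed CPM of the alpha, beta and gamma members, and of the gamma members without the short Pcdhgc4 transcript, in each library by group; lines and bars are mean and SD of 6 mice. Alpha means run from 229 CPM in Grn+/-:hTDP+ to 261 CPM in Grn+/+:hTDP- mice, and the alpha sums of these groups overlap. Their beta sums do not, with a highest of 157 CPM in Grn+/-:hTDP+ and a lowest of 159 CPM in Grn+/+:hTDP- mice. The sums were not tested.

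Markers of other cells were read in the same comparison, and none of those given here was called. All 5 excitatory neuron markers lay below 0 (median -0.081), and their summed level ran from 2483 to 3034 TPM in hTDP+ and 2780 to 3113 TPM in hTDP- mice. All 5 oligodendrocyte markers lay above 0 (median 0.22), at 758 to 2888 TPM in hTDP+ and 811 to 3958 TPM in hTDP- mice. Their order differed by Grn. The sum averaged 2076 ± 636 TPM in Grn+/+:hTDP+ and 1315 ± 467 TPM in Grn+/+:hTDP- mice. It averaged 1485 ± 645 TPM in Grn+/-:hTDP+ and 1773 ± 1202 TPM in Grn+/-:hTDP- mice (SD, n = 6 each). All 5 mural and meningeal markers lay above 0 (median 0.17), at 39.3 to 61.6 TPM in hTDP+ and 37.5 to 55.0 TPM in hTDP- mice. The endothelial markers Cldn5, Flt1 and Pecam1 gave 0.14, 0.053 and 0.046. Markers of inhibitory neurons, astrocytes, oligodendrocyte precursors and microglia lay on both sides of 0. The part of these cells in the result was not tested. In bulk tissue, fewer cells of a type and less RNA per cell cannot be told apart.

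The second comparison asked what the loss of 1 Grn copy did, averaged over both transgene states. No member was called by edgeR, against 0.0219% of all genes, and DESeq2 called 0 members and 0.0494% of all genes. Estimates lay below 0 for 45 of 57 members (median -0.083), against 46.5% of all genes. An unadjusted p under 0.05 was found for 8 members, all lower in Grn+/- mice, against 4.9% of all genes. As single libraries were left out that count ran from 6 to 13, the highest without Grn+/-:hTDP+ replicate 2. With the age block it was 5. Over all 18239 genes, 576 had an unadjusted p under 0.05 with the age block, against 894 without it. Pcdhga8 had the smallest p, with 17.9, 22.7 and 28.1 CPM in Grn+/- mice, against 18.2, 28.1 and 34.9 CPM in Grn+/+ mice. One of the 12 Grn+/- mice lay above the Grn+/+ median. Its log2 change was -0.24 (SE 0.0804, edgeR adjusted p = 0.932). Pcdhb7 gave -0.15 (SE 0.0608), Pcdha2 -0.22 (SE 0.0909) and Pcdhgb5 -0.13 (SE 0.0623). Among hTDP+ mice alone, edgeR called 0 members and 0.00548% of all genes for Grn, and DESeq2 called 0 members and 0.0274% of all genes. There 37 of 57 members lay below 0, against 48.6% of all genes, and 7 had an unadjusted p under 0.05, against 3.31%. Among hTDP- mice alone, edgeR called 0 members and 0% of all genes, and DESeq2 called 0 members and 0.0329% of all genes. There 44 members lay below 0, against 46.1% of all genes, and 7 had an unadjusted p under 0.05, against 3.39%.

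Markers of other cells, read in the average Grn comparison, were not called by edgeR, and many lay above 0. All 5 astrocyte markers did (median log2 change 0.094), with summed levels of 361 to 590 TPM in Grn+/- and 384 to 512 TPM in Grn+/+ mice. All 4 microglia markers did (median 0.089), at 120 to 173 TPM in Grn+/- and 104 to 155 TPM in Grn+/+ mice. All 5 mural and meningeal markers did (median 0.17), at 39.2 to 61.6 TPM in Grn+/- and 37.5 to 54.1 TPM in Grn+/+ mice, as did all 3 endothelial markers (median 0.082). The globin genes Hbb-bs and Hba-a1, markers of blood, gave 0.96 and 0.97, and their sum ran from 35.99 to 519.6 TPM in Grn+/- and 34.9 to 182 TPM in Grn+/+ mice. The part of these cells in the members' values was not tested.

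With both changes together, Grn+/-:hTDP+ against Grn+/+:hTDP- mice, no member was called by edgeR, against 0.0768% of all genes, or by DESeq2, against 0.472%. This comparison shares mice with the averaged ones, and its values are given beside them. Estimates lay below 0 for 54 of 57 members (median -0.20), against 45.1% of all genes. An unadjusted p under 0.05 was found for 24 members, 22 of them lower, against 9.36% of all genes. Without Grn+/-:hTDP+ replicate 1 that count was 11, with 51 below 0 and a median of -0.16, and it was 15 without both libraries that stood apart and also 15 with the age block. Over all 18239 genes, 1278 had an unadjusted p under 0.05 with the age block, against 1707 without it. Pcdhga8 had 17.9, 22.4 and 26.8 CPM in Grn+/-:hTDP+ mice, against 21.8, 32.6 and 34.9 CPM in Grn+/+:hTDP- mice. All 6 Grn+/-:hTDP+ mice lay below the Grn+/+:hTDP- median. The log2 change was -0.45 (SE 0.114, edgeR adjusted p = 0.291). Pcdha3 gave -0.43 (SE 0.111) and Pcdhb11 -0.35 (SE 0.0935), both with an edgeR adjusted p of 0.308. Of the excitatory neuron markers, 4 of 5 lay below 0 here (median -0.17), at 2614 to 3034 TPM in Grn+/-:hTDP+ and 2846 to 3065 TPM in Grn+/+:hTDP- mice, and 2 had an unadjusted p under 0.05. All 5 astrocyte (median 0.12), all 4 microglia (median 0.076), all 3 endothelial (median 0.16) and all 5 mural and meningeal markers (median 0.36) lay above 0, and none of these was called. Their part in the result was not tested.

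The interaction asked whether the hTDP difference depended on Grn. edgeR called 0 members and 0% of all genes, and DESeq2 called 0 members and 0.0165% of all genes. An unadjusted p under 0.05 was found for 3 members, against 2.32% of all genes, and 23 of 57 estimates lay below 0, against 48.9% of all genes. As single libraries were left out the count of 3 ran from 2 to 5, the highest without Grn+/-:hTDP+ replicate 3. It was also 5 without both libraries that stood apart. Pcdhb13 had the smallest p, 0.000947 unadjusted, with a difference of 0.65 in log2 change (SE 0.172, edgeR adjusted p = 0.9999). Its values in CPM were 6.10, 7.43 and 9.36 in Grn+/-:hTDP+ and 4.42, 6.13 and 6.84 in Grn+/+:hTDP+ mice, against 6.28, 6.98 and 8.23 in Grn+/-:hTDP- and 7.29, 8.61 and 11.5 in Grn+/+:hTDP- mice.

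Within Grn+/+ mice the values of Pcdhb13 did not overlap, with every hTDP+ mouse below every hTDP- mouse. The log2 change there was -0.56 (SE 0.122, edgeR adjusted p = 0.233), while DESeq2 gave an adjusted p of 0.0122 and called 0.148% of all genes. Among Grn+/+ mice edgeR called 0 members and 0.0329% of all genes. Estimates lay below 0 for 47 of 57 members, against 49.7% of all genes, and 12 had an unadjusted p under 0.05, against 7.79%. Pcdha5 also did not overlap there, with a highest value of 14.48 CPM in Grn+/+:hTDP+ and a lowest of 14.53 CPM in Grn+/+:hTDP- mice, and a log2 change of -0.50 (SE 0.146, edgeR adjusted p = 0.597). The share of all genes without overlap in this comparison was not counted, so the lack of overlap of Pcdhb13 and Pcdha5 cannot be set against it. Within Grn+/- mice edgeR called 0 members and 0.0219% of all genes, and DESeq2 called 0 members and 0.0494% of all genes. There 49 of 57 members lay below 0, against 50.1% of all genes, and 6 had an unadjusted p under 0.05, against 2.4%. The smallest p was that of Pcdhb22, at -0.19 (SE 0.0689, edgeR adjusted p = 0.99995). Pcdha7 lay the other way, at 0.21 (SE 0.0959).

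**Figure D4:**
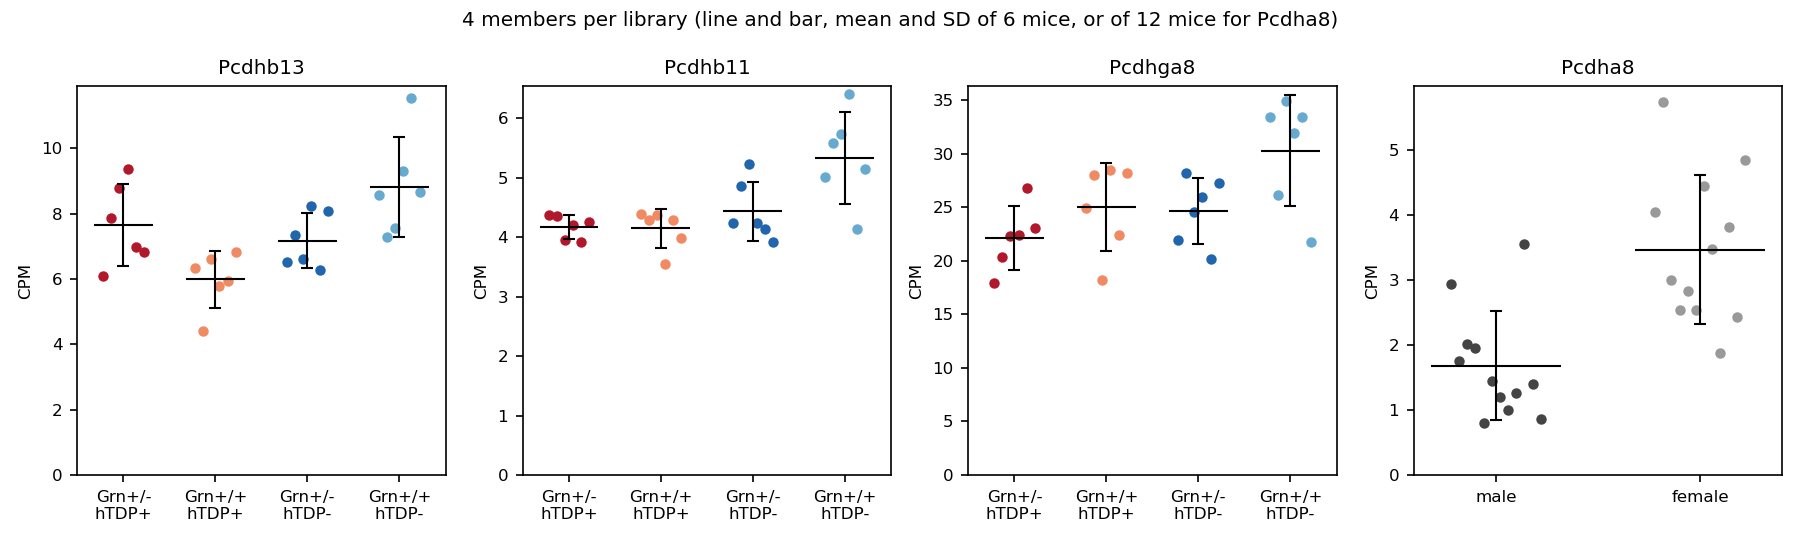
CPM per library of Pcdhb13, Pcdhb11 and Pcdhga8 by group and of Pcdha8 by sex; lines and bars are mean and SD of 6 mice, or 12 for Pcdha8. Pcdhb13 in Grn+/+:hTDP+ mice tops out at 6.84 CPM, below the 7.29 CPM of the lowest Grn+/+:hTDP- mouse, and Pcdha8 averages 1.68 CPM in males and 3.47 CPM in females.

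Sex was a term of the model, and male minus female differences were read from the same fit. Among 57 members, edgeR called 0, against 0.0713% of all genes, and DESeq2 called 1, against 0.121%. Estimates lay below 0 for 44 members, against 49.3% of all genes, and 12 had an unadjusted p under 0.05, all lower in males, against 5.93% of all genes. Without Grn+/-:hTDP+ replicate 1, a male, that count was 8. Pcdha8 had the smallest p. It had 0.802, 1.42 and 3.55 CPM in males, against 1.88, 3.23 and 5.74 CPM in females, and 1 of 12 males lay above the female median. The log2 difference was -1.03 (SE 0.216, edgeR adjusted p = 0.0870, DESeq2 adjusted p = 0.000859). Pcdhb3 had 5.01, 6.05 and 7.51 CPM in males, against 5.46, 7.85 and 9.06 CPM in females, with a log2 difference of -0.29 (SE 0.0723, edgeR adjusted p = 0.331). It was called without Grn+/+:hTDP+ replicate 2, a female, at -0.34 (edgeR adjusted p = 0.00593), where the share of all genes called is not given. Pcdhgb5 gave -0.25 (SE 0.0623), Pcdhb2 -0.31 (SE 0.102), Pcdha1 -0.45 (SE 0.153) and Pcdhga11 -0.13 (SE 0.0548).

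Of the gamma C genes, Pcdhgc3 and Pcdhgc5 were read nearly as single transcripts. The main transcript held a mean of 99.1% of the reads of Pcdhgc3 and 97.5% of those of Pcdhgc5 over 24 libraries. By TPM the main Pcdhgc5 transcript held 75.2%, and the others include ones of 444 and 593 bases. Pcdhgc4 was divided between a long transcript of 5024 bases and a short one of 2272 bases, both annotated as protein-coding. Of the short one, 2119 bases (93.3%) lie in exons shared by at least 10 members and 153 are its own. Its words of 31 bases were found in no other gene for 6.74% of the transcript, against 58.1% for the long one. How many of its reads are its own thus rests on Salmon's division of shared exons.

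The short transcript had the widest range of CPM within the gene. It had 23.5, 51.8 and 162 CPM in Grn+/-:hTDP+ mice, 27.1, 54.6 and 105 in Grn+/+:hTDP+, 29.3, 44.4 and 82.3 in Grn+/-:hTDP- and 11.9955, 21.3 and 44.8 CPM in Grn+/+:hTDP- mice. The groups overlapped, and the highest values were 162 and 138 CPM in Grn+/-:hTDP+ replicates 1 and 6. The long transcript varied less, at 28.3 ± 4.48, 31.2 ± 2.89, 30.1 ± 2.77 and 31.5 ± 2.77 CPM (SD, n = 6 each) in the same order of groups.

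**Figure D5:**
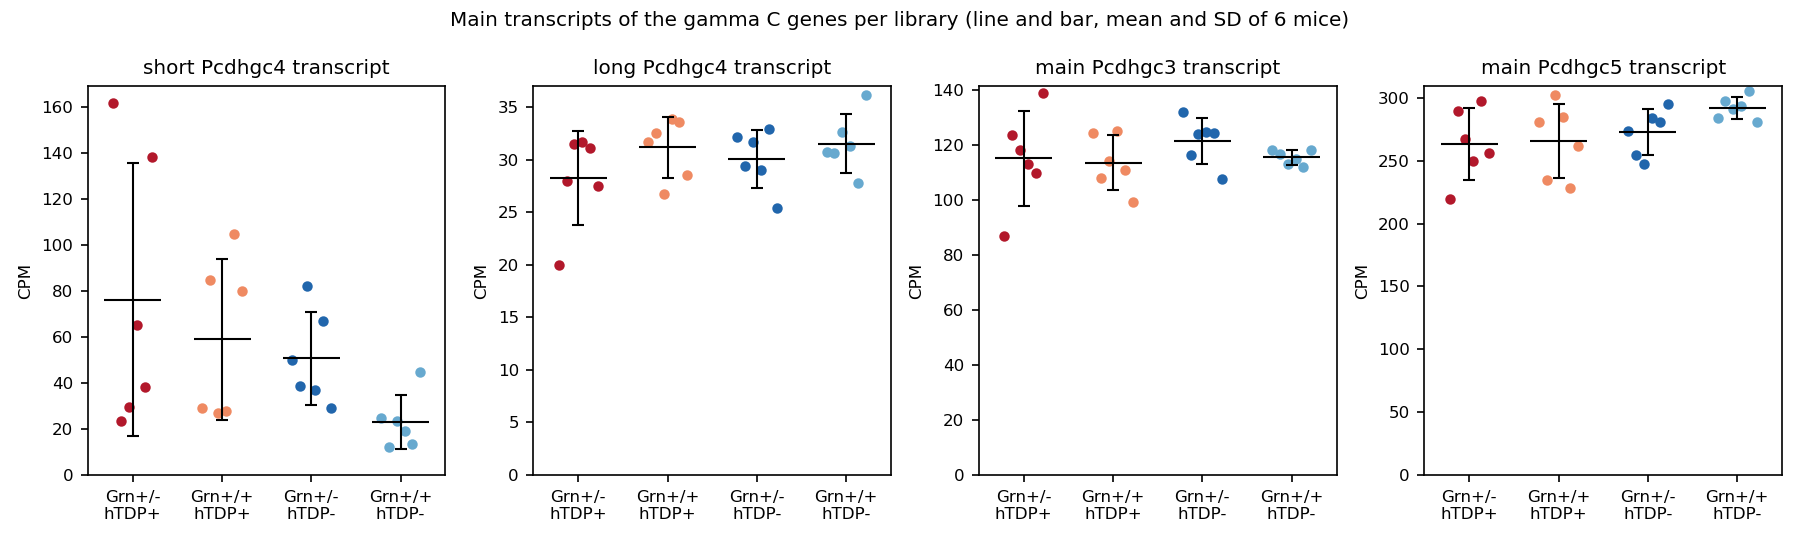
CPM per library of the main transcripts of the gamma C genes by group; lines and bars are mean and SD of 6 mice. The short Pcdhgc4 transcript spreads from 11.9955 to 162 CPM over the libraries, while the long one stays between 19.9 and 36.2 CPM.

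Among 9 gamma C transcripts tested, edgeR called 0 for hTDP, Grn or both changes, against 0.039%, 0.00585% and 0.0156% of 51293 transcripts. In each of these, 1 of the 9 had an unadjusted p under 0.05, against 5.55%, 2.94% and 5.03% of all transcripts. The short Pcdhgc4 transcript had a log2 change of 0.99 with hTDP (SE 0.343, edgeR adjusted p = 0.796) and 1.75 with both changes (SE 0.4926, edgeR adjusted p = 0.898). For Grn it had 0.76 (SE 0.339). The long transcript had -0.059 with hTDP and -0.096 with Grn (SE 0.0691 each). DESeq2 called 0 for hTDP, 0 for Grn and 1 for both changes, against 0.368%, 0.188% and 0.155% of all transcripts, and limma voom called 0 in all of them.

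As a share of the gene's reads, the short Pcdhgc4 transcript took 64.5% ± 18.2 in Grn+/-:hTDP+, 60.3% ± 14.4 in Grn+/+:hTDP+, 60.8% ± 7.18 in Grn+/-:hTDP- and 39.7% ± 9.42 in Grn+/+:hTDP- mice (SD, n = 6 each). The hTDP+ mean exceeded the hTDP- mean by 12.1 percentage points (two-sided permutation test with 100000 resamples, p = 0.0597). The p ran from 0.0281 to 0.108 as single libraries were left out, and it was under 0.05 for 8 of the 24. Tests of transcript usage differed by tool. limma's usage test gave an adjusted p of 0.305 for hTDP, where 0.443% of 7892 genes were called, and 0.541 for Grn, where 0.0253% were called. For hTDP a quasi-likelihood usage test gave 0.999985, with 0.0507% of genes called, and a likelihood-ratio test gave 1.66e-11, with 0.165% called.

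Other genes of the pathway were followed from lists of known function. None was called by edgeR for hTDP or Grn, against 0.11% and 0.0219% of all genes. Over all genes, 48.4% lay below 0 for hTDP and 46.5% for Grn, to be set beside the count of each list below. Of 18 genes for promoter choice and chromatin, 11 lay below 0 for hTDP (median -0.018) and 16 for Grn (median -0.040). Dnmt3b, a DNA methyltransferase, was highest for hTDP at 0.38 (SE 0.309) and lowest for Grn at -0.50 (SE 0.315). Dnmt3a was highest for Grn at 0.039. Ctcf, the architectural protein that binds these promoters, gave 0.0032 for hTDP and -0.051 for Grn (SE 0.0224 each). At an unadjusted p under 0.05 there was 1 of the 18 for hTDP, against 7.82% of all genes, and 4 for Grn, against 4.9%. All 4 lay below 0: Dnmt1, the maintenance DNA methyltransferase, at -0.075 (SE 0.0242), the cohesin subunits Stag2 at -0.091 (SE 0.0388) and Smc3 at -0.046 (SE 0.0209), and Ctcf. These were chosen after their values were seen, and the smallest edgeR adjusted p of the list for Grn was 0.932.

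Of 7 genes for cleavage, 3 lay below 0 for hTDP and 3 for Grn. Adam10, the sheddase of gamma protocadherins, was lowest in both, at -0.044 and -0.052. The gamma-secretase subunits Psenen (0.070, hTDP) and Psen2 (0.079, Grn) were highest. Among 14 intracellular partners, 9 lay below 0 for hTDP and 11 for Grn. Cyfip2, of the WAVE complex, was lowest for hTDP at -0.084 and Brk1 highest at 0.053, while the kinase Ptk2 was lowest for Grn at -0.056 and Marcks highest at 0.047.

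Among 12 protocadherins outside the clusters, 9 lay below 0 for hTDP (median -0.049) and 5 for Grn (median 0.0096). Pcdh7 was lowest at -0.16 and Pcdh15 highest at 0.082 for hTDP, and Pcdh9 lowest at -0.13 and Pcdh12 highest at 0.32 for Grn. Of 7 synaptic partners, 6 lay below 0 for hTDP and 5 for Grn, with the neurexin Nrxn3 lowest in both at -0.098 and -0.062. Cdh2, the classic cadherin of synapses, was highest for hTDP at 0.0089 and Nrxn2 for Grn at 0.023.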

How the data were processed

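Frontal cortex polyA RNA of 24 mice was measured, 6 per genotype, with 61445842 to 100859149 reads per library. STAR, SAMtools, Salmon and DESeq2 are named without versions in the submitters' processing notes, and the genome build is not given in the sources used here. The deposited tables hold, per the file headers, expected counts (estimated reads, not whole) and TPM per transcript, with each transcript's length. Identifiers of 138032 of 149444 transcripts (92.4%) matched GENCODE M21 on GRCm38. From the deposited expected counts, reads were summed to 52352 genes and rounded. edgeR 4.0.16 quasi-likelihood tests (R 4.3.3, TMM scaling, default filter on low counts) were fitted on 18239 genes over all 24 libraries, with a term per genotype and sex, and adjusted by Benjamini-Hochberg at 0.05. Transcripts were tested likewise, and transcript usage with limma 3.58.1. CPM values are TMM scaled. Shares of 31-base words were read from the annotated transcripts. The scripts were tested on simulated data. Alternatives were DESeq2 1.42.0, limma voom (transcripts), other scaling, no filter, no sex term, linear age, age as a block, 3 surrogate variables (sva 3.50.0), length-scaled TPM, and leaving out libraries. Replicates were numbered within a group in the order of the series, since the sample titles hold a number each but no replicate number.

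Named were the 5 C-type genes, the members of highest and lowest TPM and variation in each cluster, those of smallest p in each comparison, and the extremes of each pathway list. One such extreme is not reported here. The members and lists were chosen with earlier results of these data known. Reads whose transcript had no match made up 1.17% to 1.66% of a library and were left out. The labels' protocols describe a directional and a non-directional library preparation without saying which was used, so reads of antisense genes could not be told apart by strand.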

Additional observations from a re-analysis of the deposited data

Results flagged for a closer look

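In 160 sets of 6 mice, over 40 members, transcripts and sums, a sample lay far from the other 5 of its group 10 times, where chance gives about 1 in 20. Grn+/-:hTDP+ replicate 1 was lowest of its group for the beta cluster sum, at 125 CPM, and for the long Pcdhgc4 transcript, at 19.9 CPM. Grn+/+:hTDP+ replicate 2 was highest of its group for Pcdha2, at 7.16 CPM, and for the retained-intron Pcdhgc4 transcript, at 3.08 CPM. Grn+/-:hTDP+ replicate 2 was lowest for the retained-intron Pcdhgc4 transcript, at 0.245 CPM, and replicate 3 of that group highest for Pcdha12, at 37.4 CPM. Among Grn+/-:hTDP- mice, replicate 1 was lowest for Pcdha9 at 12.9 CPM, replicate 6 highest for Pcdhb21 at 4.48 CPM and replicate 5 lowest for Pcdhgb6 at 27.7 CPM. Pcdha5 was lowest in Grn+/+:hTDP- replicate 6, at 14.5 CPM.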

How the results depend on the processing

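Of 39 results for named members, recomputed 1281 times, 1272 kept their direction and their side of the threshold, 9 passed it only under the alternative, and 0 changed direction. The count of members called stayed at 0 for the average hTDP, average Grn and interaction comparisons under each alternative. It was 1 under DESeq2 for hTDP in Grn+/+ mice. For sex it was 1 under DESeq2, with linear age, with surrogate variables and without the pair of libraries that stood apart (chosen after seeing the data), and 0 to 1 when single libraries were left out. Of 18239 genes, 14 were called for sex with linear age and 25 with surrogate variables. The share of all genes called with libraries left out is not given. Gamma C transcripts called with both changes were 1 under DESeq2. The adjusted p of Pcdhgc4 usage was 1.66e-11 for hTDP and 2.16e-06 for Grn in the likelihood-ratio fit, against 0.305 and 0.541. The cause of these differences was not tested. The hTDP difference in the share of the short Pcdhgc4 transcript ran from 9.71 to 14.1 points as single libraries were left out. Its permutation p was under 0.05 without Grn+/-:hTDP+ replicate 2 or 3, Grn+/+:hTDP+ replicate 1, 3 or 4, or Grn+/-:hTDP- replicate 1, 3 or 5. No paired analysis was possible because the labels give no replicate numbers shared between groups. A block by age in months, chosen after seeing the data, called 0 members in all comparisons, and the counts at an unadjusted p under 0.05 were 4, 5 and 15 for hTDP, Grn and both changes, against 18, 8 and 24 without it. Over all 18239 genes these counts fell too, to 371, 576 and 1278 with the block, from 1427, 894 and 1707 without it. The block leaves fewer degrees of freedom. Ages of 8.19, 9.14 and 10.56 months occurred only in Grn+/-:hTDP- mice. The block thus leaves those mice no comparison with another group. The cause of the lower counts was not tested. Members with few reads (Pcdhb1, at most 33) and those with few words of their own are limited by depth and by the division of shared reads.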
